A study of Mus musculus with 8 samples.

Results

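The genes described here encode the synaptotagmins, synapsins, SV2 proteins, SNAP, syntaxin and VAMP proteins and the syntaxin-binding proteins, that is, proteins of synaptic vesicles and the SNARE machinery of membrane fusion with its regulators. They were selected by gene name on a mouse microarray, which gave 57 gene names and 86 probes of 36163 names and 55681 probes on the array. By their usual roles, 23 were classed as neuronal, 25 as general and 9, all synaptotagmins, were not classed. The classes were drawn with earlier results of these data known. Membrane fusion in every cell is driven by SNARE proteins, of which a VAMP on the vesicle and a syntaxin and a SNAP protein on the target membrane zip into a bundle, while syntaxin-binding proteins, encoded by the Stxbp genes, regulate the syntaxin. In neurons a dedicated set of proteins, among them those of Vamp2, Stx1a and Snap25, serves transmitter release, synaptotagmin 1 senses the calcium that triggers it, and synapsins tether the vesicles. The general paralogues serve the traffic through endosomes, lysosomes, the Golgi apparatus and the plasma membrane of most cells.

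RNA came from the mouse embryonic stem (ES) cell line E14Tg2A, of strain 129/Ola, at 4 stages of neural differentiation. These were ES cells in serum and LIF at day 0, epiblast-like aggregates (ELA) after 2 days in a chemically defined minimal medium, neural progenitor cells (NPC) at day 6, and neural precursors (NPC/Neu) at day 10. All later stages were derived from this 1 line. At each stage 1 array was hybridised with total RNA and 1 with Ago-RNA, the RNA that came down with Argonaute, the protein that carries miRNAs, when cytosolic complexes were precipitated with the pan-Ago antibody 2A8. Each of the 8 arrays held RNA pooled from 3 independent experiments, so no condition had a replicate and no test between stages could be made.

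Signals are normalised log2 intensities. The Ago enrichment E of a stage is its log2 Ago-RNA signal minus its log2 total RNA signal. Because Ago-RNA was taken from the cytosol and total RNA from whole cells, the fraction an mRNA occupies in the cytosol and its binding to Argonaute cannot be told apart in E. A gene is said to have risen or fallen where its log2 signal moved by 1 or more, a limit of size and not a test. Among 399 probes printed in 10 spots, the spot-to-spot SD of E was 0.13 to 0.15, and that of a change in total RNA was 0.13 to 0.17. This SD covers the spread within arrays and not that between cultures. On each array 44 to 52 of the 57 genes were well above background. Stx19, Syt12 and Syt2 were above background on no array and have no value below. No spot was saturated.

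Markers of the stages were checked first. Pou5f1, the pluripotency factor Oct4, had total RNA signals of 15.21, 14.76, 7.98 and 8.31 at the 4 stages in order of time. All 5 neuronal markers on the array (Tubb3, Dcx, Elavl3, Rbfox3, Nefl) rose both from ES to NPC/Neu and from NPC to NPC/Neu, by 1.48 to 3.11 in the latter step. Of 3 neuroendocrine markers, whose cells use the same fusion machinery, Chgb and Scg2 rose from ES to NPC/Neu and all 3 rose from NPC to NPC/Neu. Neuronal and neuroendocrine sources of the values below were not told apart, and in such bulk RNA fewer cells of a type and less RNA per cell cannot be distinguished either. From ES to NPC/Neu all 6 ES markers and 2 of 3 epiblast markers fell and all 4 progenitor markers rose. From NPC to NPC/Neu, however, the ES markers Esrrb and Zfp42 rose by 1.96 and 1.06 and the epiblast marker Pou3f1 by 1.57, in the step in which the neuronal markers rose. None of 3 astrocyte markers passed the limit over that span and Gfap stayed between 7.67 and 8.03, but Slc1a3 rose by 1.14 from NPC to NPC/Neu. Of 3 oligodendrocyte markers Olig2 and Mbp rose, and of 4 endoderm and mesoderm markers measured Foxa2 and T rose. Their part in the values below was not tested.

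Argonaute is led to an mRNA mainly by pairing of a miRNA with its 3′ UTR. The 4 miRNAs below, well known in ES cells or the neural lineage, were chosen with earlier results of these data known. Their mature sequences from RefSeq (GRCm38.p6) are given with the seed, bases 2 to 8, in capitals.
miR-153-3p: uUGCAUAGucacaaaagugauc
miR-9-5p: uCUUUGGUuaucuagcuguauga
let-7a-5p: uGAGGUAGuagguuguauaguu
miR-294-3p: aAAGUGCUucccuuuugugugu
They have 4 different seeds. The copy of miR-153 lies at chr12:117250860-117250881 on the plus strand. The 7 bases complementary to its seed, CTATGCA, occurred in the longest annotated 3′ UTR of 9 of the 55 genes that have one, against 7.61% of 18638 genes on the array. Of the 9, 7 were neuronal (among them Snap25, Vamp2, Syt1, Stxbp5, Syn2 and Syt2), 1 was general (Stxbp6) and 1 was not classed (Syt14). The 3′ UTRs of these families were long, with a median of 1837 bases against 927 bases over all genes. The part of UTR length in these counts was not tested.

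The sites of the 3 genes at the centre of evoked release are shown because their mRNAs are followed below, with the 7 bases in capitals and coordinates on NCBIM37 (mm9).
Snap25, chr2:136607941-136607962, plus strand: tgcttaatctagagCTATGCAc
Vamp2, chr11:68904474-68904495, plus strand: ttcatttgcatctgCTATGCAa
Syt1, chr10:107935961-107935982, minus strand: tcagaactgaacagCTATGCAt
Words for the other seeds were found for miR-9 (ACCAAAG) in 10 of the 55 genes against 11.9% of all, for miR-294 (AGCACTT) in 7 against 13.9%, and for let-7a (CTACCTC) in 5 against 9.06%. None of the 23 neuronal genes had the let-7a word. It was in Stx3, Stx17, Syt6, Syt7 and Syt11. A word match is a description of letters and shows no binding, and miRNA levels were not measured on these arrays.

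The first question was which of these genes changed in total RNA as ES cells became neural precursors. From ES to NPC/Neu, 19 of 53 genes measured rose and 2 fell, where over all 25631 genes 16.4% rose and 16.3% fell. The median change was 0.51 on the log2 scale, against -0.06 over all genes. Among the neuronal genes 9 of 21 rose and 1 fell, with a median of 0.92. Among the general genes 7 of 24 rose and 1 fell, with a median of 0.14. Of 8 synaptotagmins not classed, Syt11, Syt7 and Syt13 rose.

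**Figure D1:**
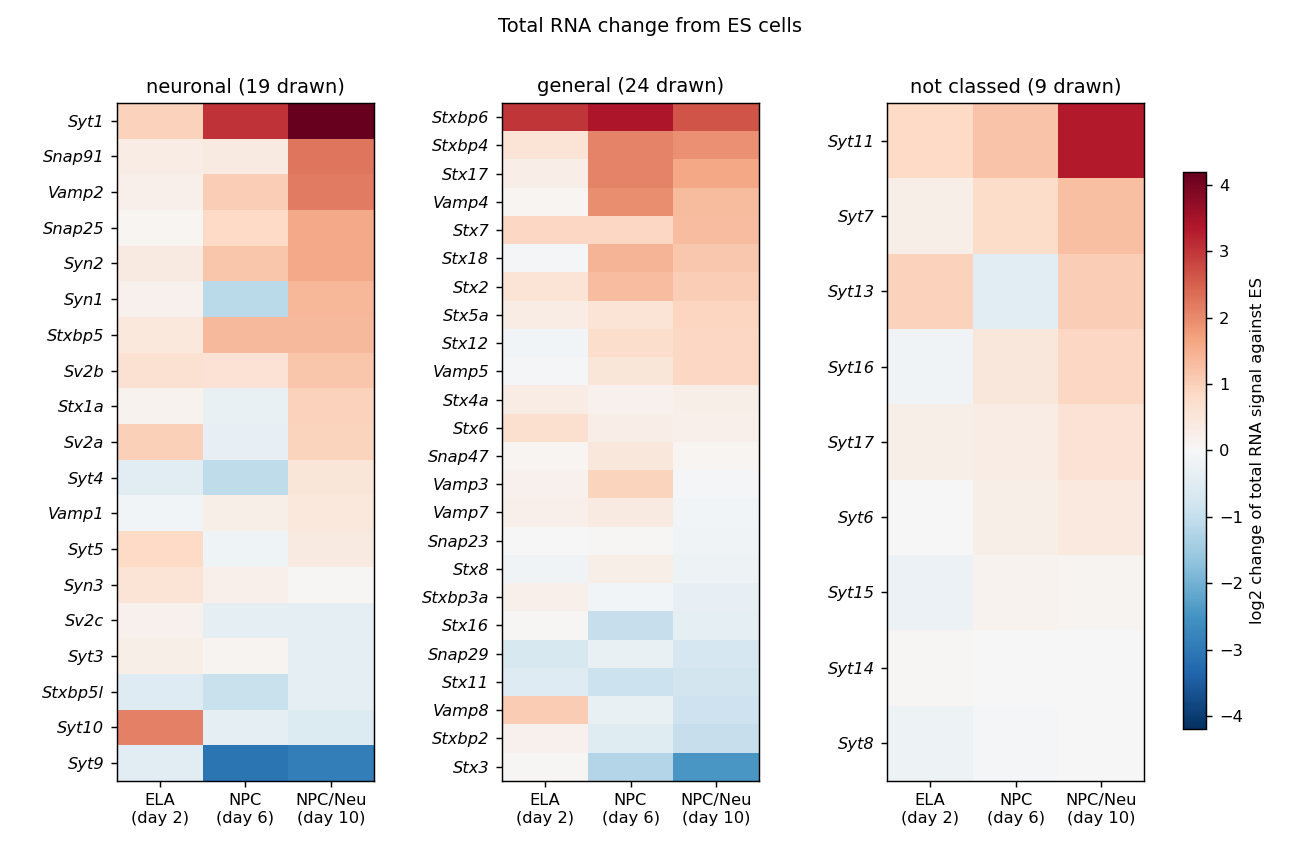
Log2 change of total RNA signal from ES cells at ELA, NPC and NPC/Neu (columns) for 52 of the 54 genes detected on at least 1 array (rows), by class and ordered by the change at NPC/Neu. Red is higher and blue lower than in ES cells, with 1 array per stage. Syt1 changed by 4.18 and Syt9 by -2.91 at NPC/Neu.

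Syt1, the calcium sensor of synchronous release, had total RNA signals of 7.85, 8.82, 10.88 and 12.04 from ES through ELA and NPC to NPC/Neu. It was higher at each later stage, and the ratio of NPC/Neu to ES was 18.2. Syt11, a synaptotagmin without calcium binding that acts in endocytosis and vesicle recycling, read 11.92, 12.76, 13.13 and 15.25, a ratio of 10.1. Vamp2, the vesicle SNARE synaptobrevin 2, read 9.74, 9.96, 10.76 and 11.92. Snap25, the neuronal target-membrane SNARE, read 13.41, 13.49, 14.24 and 15.01. Neither of these SNAREs moved by more than 0.22 in the first 2 days, and most of their rise came later. Snap91, the clathrin adaptor AP180, stayed between 7.01 and 7.37 up to NPC and reached 9.27 in NPC/Neu. Syn1 read 10.34, 10.53, 9.20 and 11.72, so it fell before it rose.

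Some of the rises started from a signal not above background in ES cells and are lower bounds. Stxbp5 (tomosyn, an inhibitor of SNARE assembly) and Syt7 (a slow calcium sensor) were at least 2.11-fold and at least 2.15-fold higher in NPC/Neu than in ES. Syn2 was at least 1.89-fold higher and Sv2b at least 1.78-fold higher by gene mean, so their changes of 1.60 and 1.16 pass the limit and these bounds do not. The brighter Syn2 probe changed by 2.25 and the dimmer by 0.95, each from a signal not above background in ES. Neuronal genes that did not move past the limit included Stx1a (0.96), Sv2a (0.92), Syt4 (0.51), Vamp1 (0.45), Syt5 (0.38), Syn3 (0.06), Sv2c (-0.38), Syt3 (-0.40), Stxbp5l (-0.42) and Syt10 (-0.58). Syt9 was the neuronal gene that fell, from 10.93 and 10.48 in ES and ELA to 7.84 and 8.01 in NPC and NPC/Neu.

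The general genes that rose serve several compartments of the cell. Stxbp6 (amisyn, a SNARE-binding inhibitor) rose most, from 9.06 in ES to 12.06 in ELA, and then read 12.47 and 11.69. Stxbp4, a syntaxin 4 partner in insulin-regulated transport, read 8.24, 8.80, 10.34 and 10.16. Stx17, the syntaxin of autophagosomes, read 8.01, 8.27, 10.10 and 9.63. Stxbp4 and Stx17 shared this profile with Vamp4 of the trans-Golgi network (9.17, 9.24, 11.12 and 10.51), namely a step up between ELA and NPC and none after it. Stx7 of late endosomes rose by 1.28 and Stx2 of the plasma membrane by 1.05. The 2 Stx2 probes changed by 1.66 and 0.44, and the 2 Vamp4 probes by 2.09 and 0.59. Stx18 of the endoplasmic reticulum rose by 1.13, and its 2 probes differed. The probe that overlaps an exon of Nsg1 on the opposite strand went from 8.01 to 9.74, and the other from 12.25 to 12.78. Nsg1 itself changed by 4.82, and its part in the Stx18 value was not tested. Stx3, a syntaxin of apical membranes and ribbon synapses, fell from 12.34 in ES to 9.88 in NPC/Neu, and all 3 of its probes were lower there.

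Each step was then counted alone. Between ES and ELA 5 of 47 genes rose (among them Stxbp6, Syt10, Vamp8 and Sv2a) and none fell, where 4.77% of all genes rose and 4.77% fell. Between ELA and NPC there were 5 rises and 8 falls among 50 genes, where 10.7% and 9.95% of all genes rose and fell. The rises in this step were 10 and 9 with processed intensity under quantile and 75th percentile scaling, with 10 and 11 falls. Shares of all genes were not counted under these scalings. Syt1 was the neuronal gene among those that rose, with Vamp4, Stx17, Stxbp4 and Stx18 beside it. Among those that fell were Syt9, Syt10, Syn1, Sv2a and Syt5 of the neuronal class, and the total RNA of Syn1, Sv2a and Syt5 was lowest in NPC, as was that of Syt13. Between NPC and NPC/Neu there were 10 rises and 2 falls among 51 genes, where the shares of all genes were 5.62% and 4.08%. In this last step 8 of 21 neuronal genes rose (among them Syn1, Snap91, Syt4, Sv2a, Stx1a, Syt1 and Vamp2) and 0 of 24 general genes did. The other 2 that rose were Syt11 and Syt13, and the 2 that fell were the general genes Stx3 and Vamp3. The medians in this step were 0.56 for neuronal, -0.28 for general and -0.04 for all genes. Because the classes were drawn with earlier results known, this contrast is a description and not a test. The Syt4 signal was not above background in NPC, and the gene was at least 2.31-fold higher in NPC/Neu.

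Paralogues of the SNAP, syntaxin and VAMP families are set side by side next. In the SNAP family Snap25 rose by 1.60, while Snap47 changed by 0.08, Snap23 by -0.16 and Snap29 by -0.69. The Snap23 mean hides a disagreement, since 1 of its 3 probes changed by 1.51 and another by -1.02. Stxbp3a and Stxbp2, general syntaxin-binding genes, changed by -0.35 and -0.97. The 2 Stxbp2 probes changed by 0.21 and -2.15. Among syntaxins of the plasma membrane Stx1a changed by 0.96, all of it between NPC and NPC/Neu (9.71 to 10.97). Stx2 rose, Stx3 fell and Stx4a changed by 0.25. Among VAMP genes Vamp2 and Vamp4 rose, Vamp5 changed by 0.86, Vamp1 by 0.45, Vamp3 by -0.08, Vamp7 by -0.10 and Vamp8 by -0.86. By gene means the neuronal Snap25 was thus the 1 gene of 4 in the SNAP family that rose. The brightest Snap23 probe, with a change of 1.51, passed the limit as well. In the VAMP family a neuronal and a general gene rose. Among these syntaxins the general Stx2 (1.05) passed the limit and the neuronal Stx1a (0.96) did not. These 2 values lie closer together than the spot-to-spot SD of such a change (0.15), and the Stx2 probes differed (1.66 and 0.44).

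**Figure D2:**
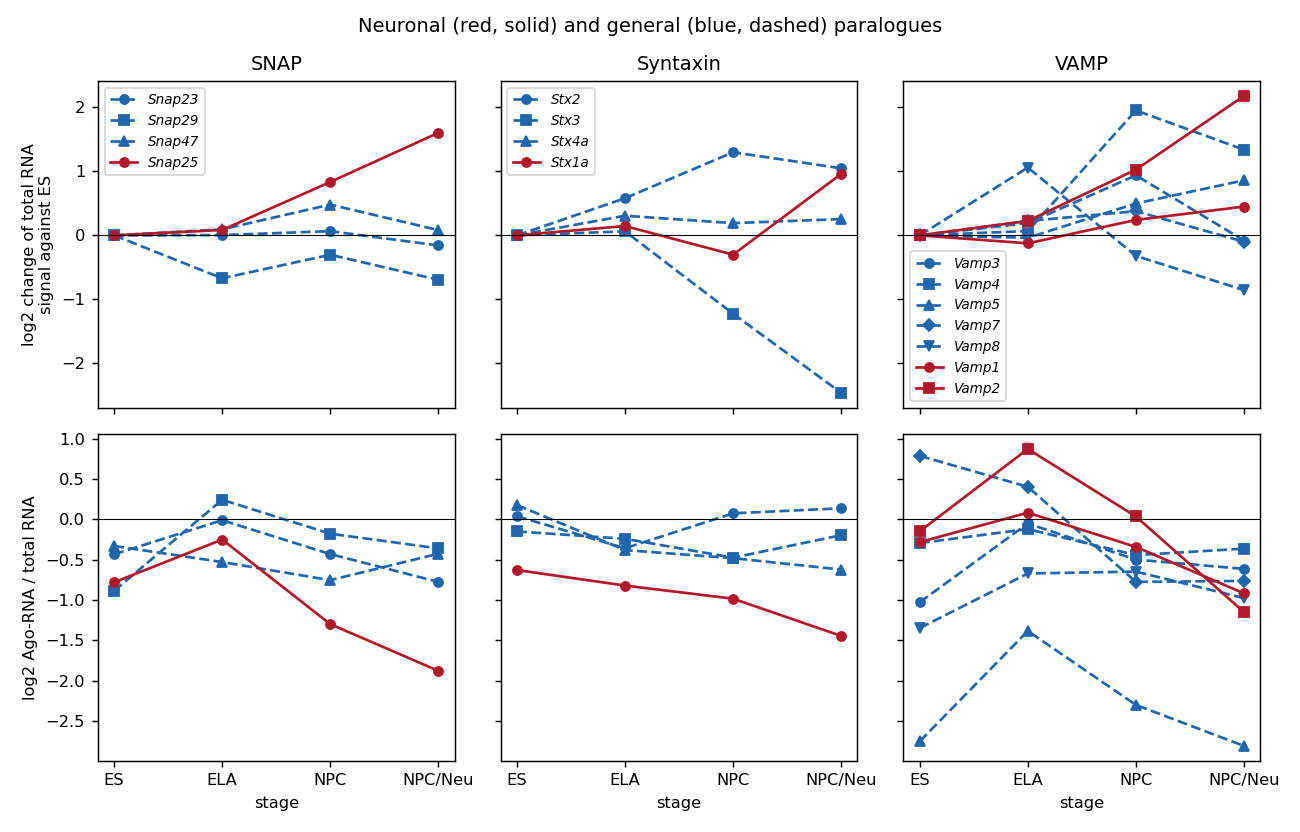
Total RNA change from ES (upper row) and Ago enrichment E (lower row), both on the log2 scale, over the 4 stages for genes of the SNAP, syntaxin and VAMP families, with 1 array per point. Neuronal paralogues are red and solid, general ones blue and dashed. Snap25 and Vamp2 end at 1.60 and 2.18 in total RNA. Snap25 ends at -1.88 and Vamp5 at -2.81 in E.

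The second question was how much of each mRNA was recovered with Argonaute. In ES cells 5 of 46 genes measured had E of 1 or more and 5 had E of -1 or less, where 10.5% and 11.1% of all genes did. In ELA the counts were 1 and 1 of 42, where 3.78% and 2.56% did, and in NPC they were 3 and 2 of 46, where 5.65% and 5.9% did. In NPC/Neu they were 5 and 5 of 51, where 12.0% and 11.5% did. These counts were near the shares of all genes. The split in ES moved with the scaling, to 8 and 2 with Ago-RNA and total RNA arrays normalised apart and to 5 and 8 with each array scaled to its 75th percentile. The median E of all genes in ES shifted too, by 0.12 and -0.35 in that order. Shares of all genes were not counted under these scalings.

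Among those enriched in NPC/Neu were Syn1 (E of 1.79), Syt11 (1.60), Stxbp3a (1.39) and Sv2a (1.06), the last a vesicle glycoprotein. The Stxbp3a probes had E of 0.81, 0.95 and 2.40, and only the dimmest of them passed the limit. Depleted were Vamp5 (-2.81), Syt10 (-2.27), Snap25 (-1.88), Stx1a (-1.45) and Vamp2 (-1.15). Snap25, Stx1a and Vamp2, whose proteins form the fusion complex of the synapse, were among the 5 depleted of 51 genes. The share of all genes was 11.5%, and 14 of 21 neuronal genes had positive E. All 7 VAMP genes had negative E in NPC/Neu, from -0.36 to -2.81, as they did under every scaling tried. Of all genes 45.4% had negative E there, and so did 18 of 24 general genes. All 4 SNAP genes were negative too, although Snap29 and Snap47 turned positive when both kinds of array were normalised apart.

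For Snap25, Ago-RNA read 12.63, 13.24, 12.94 and 13.13 over the stages, a range of 0.61, while total RNA rose by 1.60. Its E was -0.78, -0.25, -1.30 and -1.88. Vamp2 Ago-RNA read 9.59, 10.83, 10.80 and 10.76, so it was level from ELA onward while total RNA rose, and E went from 0.87 in ELA to 0.03 and -1.15. Stx1a Ago-RNA read 9.38, 9.33, 8.72 and 9.52, and E was lower at each stage than at the one before (-0.63, -0.82, -0.98 and -1.45). In all of these the Ago-RNA signal did not keep pace with total RNA in the last step. Sv2a behaved otherwise, with Ago-RNA at 8.69, 9.25, 8.01 and 10.02 and E of 0.66, 0.20, 0.32 and 1.06. Syt11 Ago-RNA read 12.62, 13.02, 13.77 and 16.85, and its E was 0.70, 0.26, 0.64 and 1.60. Syt1, whose total RNA rose most, had E of 0.73, 0.62, -0.36 and -0.16. The 7 genes with the miR-153 word and a measured E in NPC/Neu had 5 negative values, where 25 of the 51 genes were negative. The same count was 5 of 9 for the miR-9 word, 3 of 7 for miR-294 and 1 of 5 for let-7a.

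**Figure D3:**
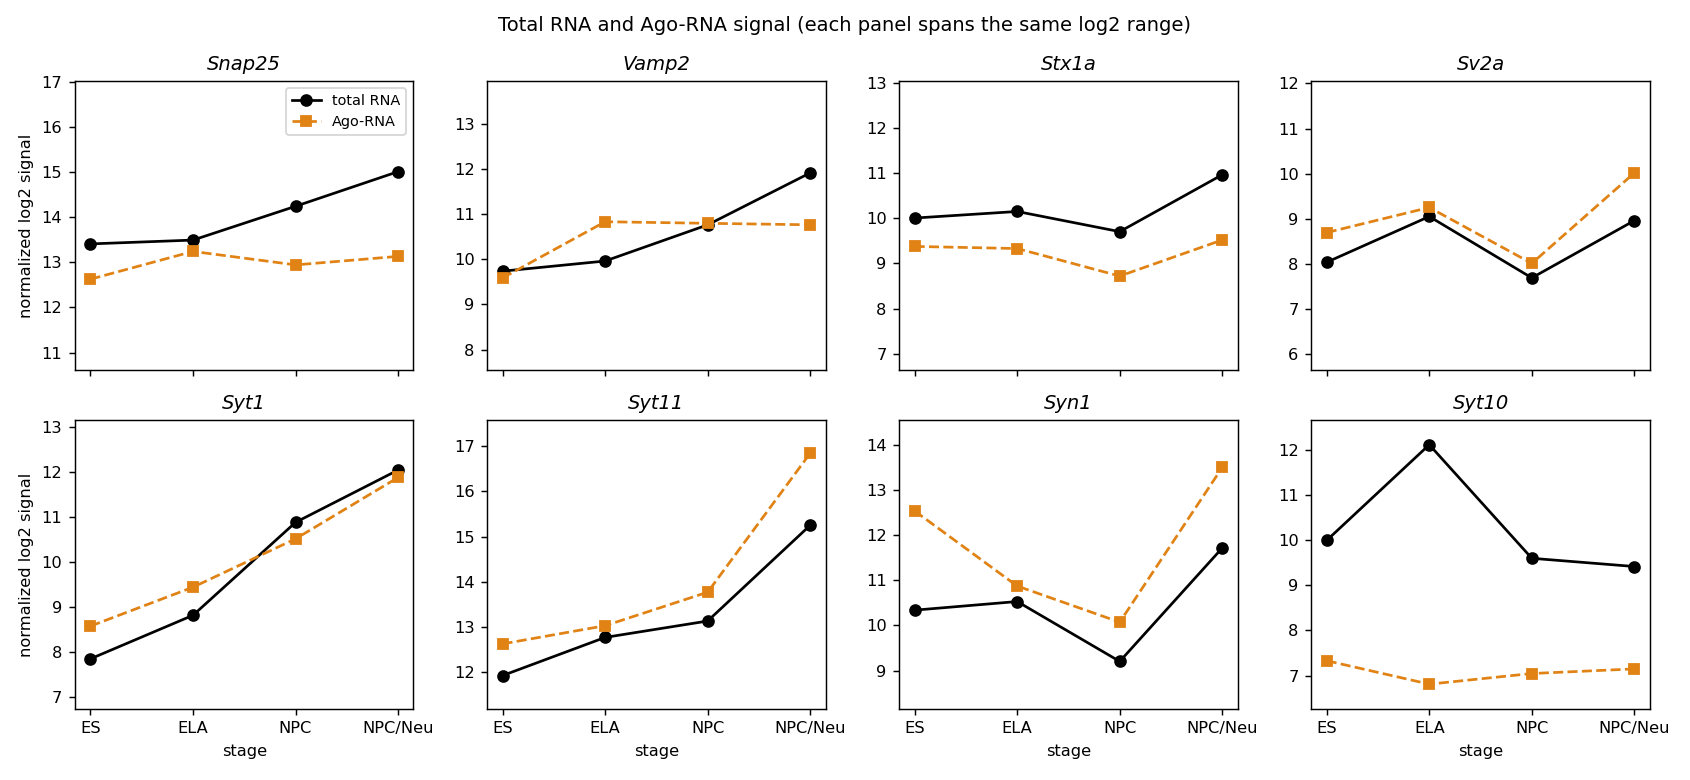
Normalised log2 signal of total RNA (black circles) and Ago-RNA (orange squares) at the 4 stages for 8 genes, 1 array per point, each panel spanning the same log2 range. For Snap25 and Vamp2 the Ago-RNA line is level from ELA on while total RNA climbs. For Sv2a and Syt11 both climb after NPC, and for Syt10 Ago-RNA stays near the floor.

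Syn1 had the highest E of these genes in ES cells and in NPC/Neu. Its Ago-RNA read 12.54, 10.87, 10.07 and 13.50, which gave E of 2.20, 0.34, 0.87 and 1.79. Both RNAs were lowest in NPC, and E was lowest in ELA. By the criteria of the study's methods a probe is released from Argonaute where E falls from at least 2 to at most 0.5 by at least 1.5, with Ago-RNA above a fitted binding threshold, and loaded in the opposite case. The Syn1 probe was the 1 of 86 that met the criteria of release, between ES and ELA with a change of -1.86, where 0.19% of all probes did. No probe of these genes met the criterion of loading there (0.133% of all probes), of release or loading between ELA and NPC (0.0862% and 0.0287%), or of release or loading between NPC and NPC/Neu (0.0287% and 0.0359%). These calls were not repeated under the alternative processing, and E of the Syn1 probe in ES (2.20) lay near the limit of 2. The probe lies at chrX:20437641-20437700 (mm9, minus strand) at the end of the Syn1 3′ UTR, where an exon of Araf lies on the opposite strand. Araf had E of -0.34, -0.17, -0.18 and -0.49 and total RNA between 11.13 and 12.02, and its part in the Syn1 signal was not tested.

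Vamp5, a VAMP known from muscle, was depleted at all 4 stages, with E of -2.75, -1.38, -2.30 and -2.81. Its total RNA read 13.19 to 14.09 and its Ago-RNA 10.47 to 11.80, all well above background. Syt10, a calcium sensor of growth factor secretion in the olfactory bulb, was also far lower in Ago-RNA than in total RNA. Total RNA rose from 10.00 in ES to 12.12 in ELA and then read 9.60 and 9.42, while Ago-RNA read 7.33, 6.81, 7.05 and 7.15. In ELA and NPC its Ago-RNA was not above background, which made it at least 37.8-fold and at least 5.87-fold lower than total RNA. A total RNA peak at ELA was thus without a counterpart in Ago-RNA.

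Other genes had E past the limit at some stages or a change of E past it. Stxbp3a, a general syntaxin-binding gene, had E of 1.54, 0.43, 0.74 and 1.39. Its probes ranged from -0.09 to 1.37 in ELA and from 0.81 to 2.40 in NPC/Neu. Stxbp6 had E of 1.46 and 1.49 in ES and ELA and -0.37 and -0.39 afterwards, the largest fall of E between ES and NPC/Neu (-1.85). Vamp7 of lysosomal secretion moved likewise, from 0.79 and 0.40 to -0.78 and -0.76. Its probe was annotated to an unplaced part of chromosome X and matched no transcript used here. Syt5 of dense-core vesicles moved the other way, from -0.70 and -0.50 to 1.15 and 0.71. Stx6 of the trans-Golgi network and Syn2 had E of 1.11 and 1.03 in NPC. Syt4, a synaptotagmin of dense-core vesicles, had E of 1.52 in ES. Vamp8, Stx8 and Vamp3, all of endosomes, had E of -1.35, -1.32 and -1.03 in ES and lay between -0.05 and -0.67 in ELA. From ES to NPC/Neu E moved up by 1 or more in 2 of 44 genes (Syt5 and Stx8) and down in 4 (Stxbp6, Vamp7, Snap25 and Vamp2), where 3.7% and 4.73% of all genes did.

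Length of the mRNA ran along with E. Over the 50 genes with a measured E in NPC/Neu and an annotated transcript, Spearman's rho of E with transcript length was 0.45, and the ES, ELA and NPC values were 0.48, 0.43 and 0.43. Over all genes rho was 0.50 for NPC/Neu and 0.60, 0.38 and 0.37 for the other stages in order, so these families were no exception on the array. The points share the same arrays and are given as a description. The 5 depleted genes in NPC/Neu had transcripts of 1648 (Vamp5), 1845 (Syt10), 2116 (Snap25), 2167 (Stx1a) and 2205 bases (Vamp2). Other genes in this range of length did not pass the limit. They were Syt5 (1747 bases, E of 0.71), Snap47 (1896, -0.43), Stx5a (2111, -0.73) and Vamp3 (2120, -0.62). Genes enriched by their mean had 2419 (Stxbp3a), 3261 (Syn1), 4334 (Sv2a) and 5020 bases (Syt11). The median transcript was 3854 bases for the neuronal and 2782 bases for the general genes, and the median E in NPC/Neu was 0.36 and -0.38. The part of length in the E of each class was not tested.

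**Figure D4:**
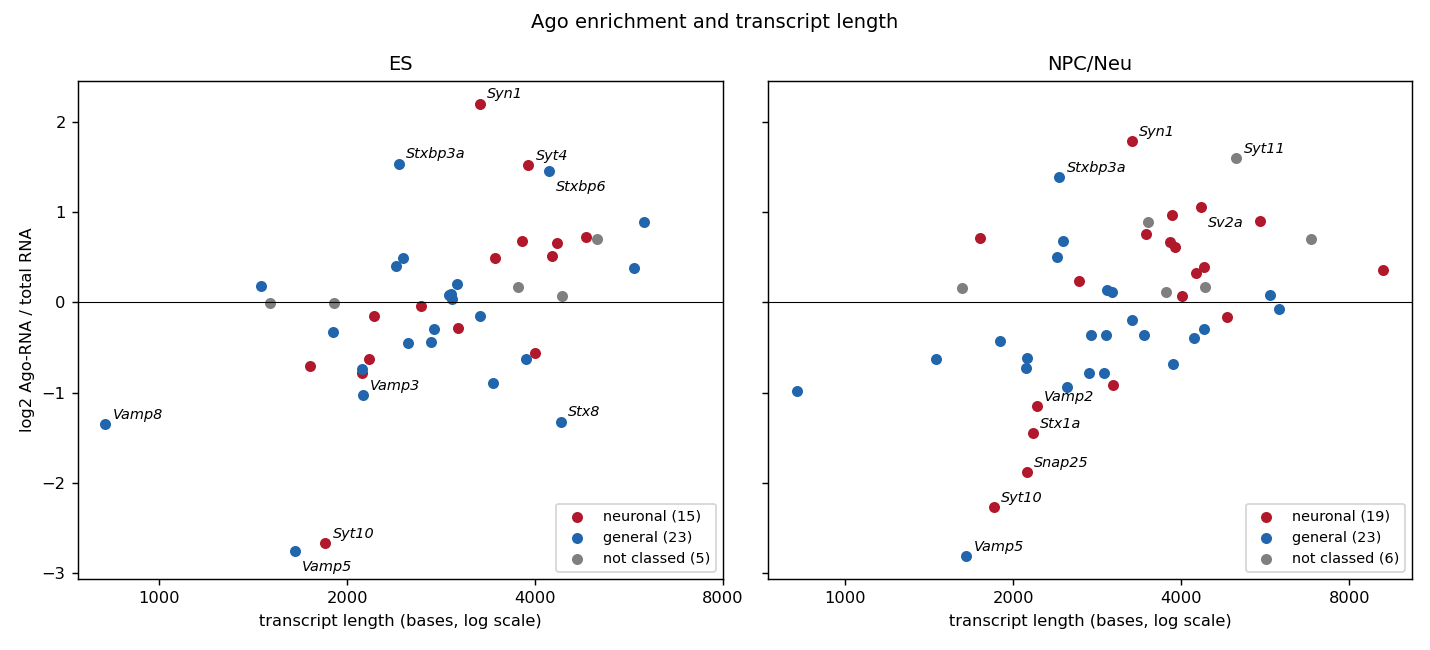
Ago enrichment E in ES and NPC/Neu (log2, vertical axis) against the length of the longest annotated transcript in bases (log axis), 1 point per gene drawn with E measured, coloured by class. Genes with E of 1 or more or -1 or less are named. In NPC/Neu the 5 depleted genes lie between 1648 and 2205 bases, a range that also holds genes not depleted, such as Syt5 (1747 bases, E of 0.71).

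Several genes have probes that disagree, and their means should be read with that in mind. In NPC the E of the 3 Syn3 probes ran from -1.75 to 1.36, and 1 of these probes lies in an intron. The 2 Stxbp5l probes ran from -1.40 to 0.56 in the total RNA change from ES to NPC/Neu, and 1 lies beyond the annotated end of the gene. The probes of Snap23 ran from -2.09 to 0.18 and those of Stxbp2 from -1.66 to 0.09 in E at NPC/Neu. Probes of Snap29, Stx6, Stx17, Stx3, Stxbp3a and Vamp4 also took opposite signs by more than 1 in at least 1 comparison.

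The other genes of the presynaptic terminal gave a frame for these values. Of 50 such genes on the array, from fusion factors, priming and active zone, vesicle proteins and endocytosis, 18 of 48 measured rose and 3 fell from ES to NPC/Neu, where 16.4% and 16.3% of all genes did. In the last step, after NPC, 11 of 47 rose and 0 fell, where 5.62% and 4.08% of all genes did. With only probes above background on all arrays 7 of 39 rose, and the share of all genes was not counted there. Slc17a6, a vesicular glutamate transporter, was at least 33.7-fold higher in NPC/Neu than in ES. Cadps, a priming factor, rose by 4.44, Rab3a, a vesicle GTPase, by 3.21, and Synpr, a vesicle protein, was at least 6.26-fold higher. The lowest values were those of Rab3b (-1.37), the endophilin Sh3gl2 (-1.33), Syngr1 (-1.24) and Rims3 (-0.59), of which the last did not pass the limit. By group, 9 of 19 priming and active zone genes rose, as did 4 of 13 vesicle protein genes, 4 of 9 endocytosis genes and 1 of 7 fusion factors. In NPC/Neu 6 of 44 had E of 1 or more (Unc13b, Doc2b, Bsn, Cadps, Synj1 and Pclo) and 3 had E of -1 or less (Rab3c, Nsf and Cplx2), where 12.0% and 11.5% of all genes did. The high count was near the share of all genes. Nsf, which takes SNARE complexes apart, had E of -1.27, and Cplx2, which clamps them, -1.25.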

How the data were processed

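Total RNA and Ago-RNA were measured at 4 stages on 8 one-colour Agilent arrays (62976 spots each). The deposited values are spot intensity (mean, local background and processed intensity) from Feature Extraction, not normalised between arrays. The version is 10.7.3.1 in the file headers and 9.1 in the submitters' processing notes. For its own analysis the study describes background correction and quantile normalisation between arrays.

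Mean and background intensity were corrected with limma 3.58.1 (R 4.3.3) by its normexp method and an offset of 50, irregular spots (125 to 523 per array) and control spots were left out, log2 values were quantile normalised over the 8 arrays and spots of a probe averaged, as the methods of the study describe for the normalisation. The share of spots well above background was 53.4% to 61.2%. A gene is the mean of its probes well above background on at least 1 array. A change in total RNA was counted where either array, and E where both arrays, had the gene above background. Where 1 array was not above background the difference is a bound, taken against the dimmest signal above background on that array or the dim value itself, whichever is higher. With 1 array per condition the number of arrays limits the precision and no test was made. The binding threshold is the mean plus 3 SD of the dimmer component of a mixture fitted with mclust 6.1.1.

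Probe sequences were matched to GENCODE vM1 transcripts on NCBIM37, the build of the array annotation (mm9), which also gave transcript lengths and 3′ UTRs. Names are those of the array (Stxbp3a is Stxbp3 in RefSeq). The counting of total RNA changes from ES to NPC/Neu was tested on simulated data. Changes were added only to bright genes above background on all 8 arrays, so changes in dim genes and counts of E were not covered. Python 3.11.15 with pandas 2.3.3 and scipy 1.17.1 was used. Gene families, classes, lists and miRNAs were chosen with earlier results of these data known. Genes were named where they belonged to a SNAP, plasma-membrane syntaxin, syntaxin-binding or VAMP set, passed the limit of 1 in total RNA from ES to NPC/Neu or in E, met the criteria of release or loading, or had probes that disagreed, with the 4 highest and 4 lowest of the other presynaptic genes. Values of 2 of the 57 genes are not reported here, though counts and medians include them. Other genes named at single steps were chosen after their values were seen. The alternatives were a normexp offset of 16, processed intensity with quantile or 75th percentile scaling, separate normalisation of Ago-RNA and total RNA arrays, no filter on dim probes, only probes above background on all 8 arrays, and the brightest probe of a gene.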

Additional observations from a re-analysis of the deposited data

How the results depend on the processing

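No paired analysis was possible because each condition had 1 array, and leaving out a replicate was not possible for the same reason. Of the 79 values of named genes past the limit, all kept their direction under the 7 alternatives wherever they were measured, and 70 to 79 stayed past the limit (68 of 68 with only probes above background on all arrays). Values that pass the limit only under an alternative are not covered by this count. Scaling to the 75th percentile shifted the median of all genes by -0.35 in E of ES, by -0.22 in E of NPC/Neu and by -0.17 in the total RNA change from ES to NPC/Neu, and separate normalisation of the 2 kinds of array shifted E by 0.12 in ES to 0.19 in ELA. The counts that moved by over 1.5 times were small ones, and the cause was not tested. Shares of all genes past the limit were not counted under the alternatives, so the counts below stand without them.

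In total RNA, genes that fell from ES to ELA were 0, with 3 for processed intensity under either scaling and 1 with the brightest probe. Rises from ELA to NPC were 5, with 10 and 9 for processed intensity with quantile and 75th percentile scaling. Falls from NPC to NPC/Neu were 2, all of general genes, with 1 under separate normalisation. Falls from ES to NPC/Neu were 2, with 4 under the 75th percentile and 4 with the brightest probe, of which neuronal 2 with the brightest probe and general 2 with it, 2 under processed quantile and 3 under the 75th percentile. Rises of other presynaptic genes from NPC to NPC/Neu were 11, with 7 where only probes above background on all arrays were used.

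For E, high values in ES were 9 under processed quantile and 8 under separate normalisation, and low ones 8 under the 75th percentile and 2 under separate normalisation. In ELA high values were 2 under processed quantile and under separate normalisation, and low ones 2 under the 75th percentile, with no filter and with the brightest probe, and 0 under separate normalisation. In NPC separate normalisation gave 7 high and 1 low, and the brightest probe 4 low. In NPC/Neu high values were 8 with the offset of 16 and 9 under processed quantile, and low ones 8 under both processed scalings. Upward changes of E from ES to NPC/Neu were 4 under processed quantile.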
